A study of Mus musculus with 72 samples.

Results

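The H3K27me3 landscape of mouse CD8+ T cells treated with DON was compared with that of vehicle-treated cells 48 h after activation. The comparison was made between 2 deposited peak lists. The vehicle list held 13556 H3K27me3 peaks and the DON list 3533, together 17089 of the 38301 H3K27me3 peaks of the series. Each list merged 2 CUT&RUN samples, so 4 of the 72 samples of the series entered. Members were taken as every interval of these lists, with no filter.

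The cells were OT-I splenocytes, whose CD8+ T cells carry a T cell receptor for the ovalbumin peptide SIINFEKL. Splenocyte cultures with lysed red cells were activated with 10 ng/mL SIINFEKL and 100 IU/mL recombinant human IL-2 in complete RPMI that contained glutamine. The DON group received 1 μM DON (6-diazo-5-oxo-L-norleucine), a glutamine analogue that inactivates many glutamine-using enzymes. For the vehicle group the labels do not say which solvent it received, DMSO or PBS, and both are named in the protocols. Genotype beyond OT-I, animal age and whether replicates came from separate animals or cultures are not given in the sources used here. The other 2 lists of the same mark, from cells given the glutaminase inhibitor CB-839 at 1 μM or cultured without glutamine, are used below only for position. RNA-seq of 4 vehicle and 4 DON libraries at 48 h was available from the same culture scheme.

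Trimethylation of lysine 27 on histone H3 is written by Polycomb repressive complex 2 (PRC2), whose catalytic subunit is EZH2 or EZH1. EED binds the mark and stimulates the enzyme, which lets the modification spread into broad domains over CpG islands, and KDM6A and KDM6B remove it. In CD8+ T cells the mark covers developmental regulators and genes of other lineages, and it is redistributed over memory and effector genes during differentiation. The methyl donor S-adenosylmethionine is used in writing it, and α-ketoglutarate, which cells can make from glutamine, is a cosubstrate of the demethylases.

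Promoters of 6 genes are shown because they represent the 3 outcomes at gene starts, a peak in both lists, in the vehicle list alone and in the DON list alone. Each run is the 250 bases before a RefSeq gene start on GRCm38.p6, the assembly that mm10 carries, 5′ to 3′ on the gene's strand. CpG dinucleotides, the letters CG, are in capitals; CG reads the same on both strands. Every run lies wholly inside the peak or peaks of its class and outside any peak of the other list.
Kit, both lists, chr5:75574737-75574986, plus strand: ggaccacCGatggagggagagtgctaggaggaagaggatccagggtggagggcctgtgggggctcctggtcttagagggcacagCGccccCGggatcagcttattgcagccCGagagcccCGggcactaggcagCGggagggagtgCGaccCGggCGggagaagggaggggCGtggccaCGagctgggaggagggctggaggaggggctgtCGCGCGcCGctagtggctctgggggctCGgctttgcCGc
Nt5e, both lists, chr9:88327359-88327608, plus strand: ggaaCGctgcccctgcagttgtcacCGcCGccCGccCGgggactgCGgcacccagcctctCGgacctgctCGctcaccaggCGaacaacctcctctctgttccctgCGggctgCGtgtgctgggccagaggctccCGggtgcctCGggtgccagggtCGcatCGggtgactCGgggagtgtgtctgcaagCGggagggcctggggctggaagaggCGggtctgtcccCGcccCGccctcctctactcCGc
Aqp3, vehicle list only, chr4:41098184-41098433, minus strand: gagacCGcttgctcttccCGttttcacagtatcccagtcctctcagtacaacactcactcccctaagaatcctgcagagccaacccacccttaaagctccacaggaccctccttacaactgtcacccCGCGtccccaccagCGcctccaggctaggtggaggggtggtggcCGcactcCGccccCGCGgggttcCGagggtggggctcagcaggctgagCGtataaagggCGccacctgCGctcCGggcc
Eomes, vehicle list only, chr9:118477939-118478188, plus strand: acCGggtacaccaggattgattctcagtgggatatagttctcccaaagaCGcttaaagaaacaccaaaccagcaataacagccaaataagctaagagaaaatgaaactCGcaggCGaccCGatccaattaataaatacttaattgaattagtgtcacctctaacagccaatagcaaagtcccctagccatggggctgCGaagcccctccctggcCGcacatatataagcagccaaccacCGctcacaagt
Serp2, DON list only, chr14:76556917-76557166, minus strand: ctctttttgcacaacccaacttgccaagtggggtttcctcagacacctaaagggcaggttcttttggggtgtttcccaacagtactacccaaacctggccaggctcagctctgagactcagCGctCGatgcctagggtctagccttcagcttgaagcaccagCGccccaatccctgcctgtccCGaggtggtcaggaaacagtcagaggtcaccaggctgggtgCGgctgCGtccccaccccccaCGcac
Stc2, DON list only, chr11:31370062-31370311, minus strand: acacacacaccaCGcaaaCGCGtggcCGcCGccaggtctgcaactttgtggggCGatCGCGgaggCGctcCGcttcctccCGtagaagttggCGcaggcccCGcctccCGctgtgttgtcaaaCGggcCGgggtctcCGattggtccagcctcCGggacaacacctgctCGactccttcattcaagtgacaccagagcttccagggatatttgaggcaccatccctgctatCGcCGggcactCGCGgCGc

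The Kit run held 17 CpGs and the Nt5e run 21. Aqp3 had 14 and Eomes 8. The DON-only pair differed widely, with 7 CpGs in the Serp2 run and 24 in the Stc2 run. Across all 32817 RefSeq promoter runs of this length the median was 6 CpGs (middle 50%, 2 to 16), and 92.1% held at least 1. These 6 were picked for display with their values known, so their CpG counts describe them and carry no test.

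With DON, fewer regions were listed and they lay mostly where vehicle cells also had a peak. The vehicle list covered 65.0 Mb of mm10 and the DON list 21.8 Mb. Peaks had a median width of 3702 bases in the vehicle list (middle 50%, 2150 to 5982) and 5342 bases in the DON list (3569 to 7692). The widest peak spanned 169703 bases in vehicle cells and 40598 bases with DON. Vehicle peaks of equal number were wider still: the 3533 strongest vehicle peaks by the authors' signal had a median width of 7128 bases.

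Agreement between replicates differed between the lists. Each peak carries 1 signal value per replicate and a global IDR, the irreproducible discovery rate of a peak across replicates, which was at most 0.05 in both lists. An IDR of 0.01 or less was reached by 6629 vehicle peaks (48.9%) and by 962 DON peaks (27.2%). Replicate signals fell in steps, with medians near 3.72, 7.04, 10.8 and 14.9 in the first vehicle replicate column, so a signal of 5.5 separates the lowest step from the rest. In the vehicle list 55.4% of peaks were on the lowest step in both replicates, against 14.7% in the DON list. A single list per condition gives no replicate-level test of the number of peaks, and the read depth of the CUT&RUN libraries was not analysed here. How depth and replicate agreement entered the list lengths was not tested. Signals are the authors' values for a peak in its own list. The lowest signal, both replicates together, was 7.0 in the vehicle list and 8.12 in the DON list. The shares at the step of 5.5 therefore do not rank the lists by strength. Apart from these shares and correlations, signals are not compared between lists, also where those of both are given below.

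A DON peak overlapped 2950 of the 13556 vehicle peaks by at least 1 base, 21.8% (Wilson 95% interval 21.1 to 22.5%, counting error only). In the other direction, a vehicle peak overlapped 2911 of the 3533 DON peaks, 82.4% (81.1 to 83.6%). The 2 lists shared 16.4 Mb, which is 25.2% of the bases of the vehicle list and 75.2% of those of the DON list. The share of DON peaks was 45.2% when the vehicle list was reduced to its 3533 strongest peaks, and 38.9% of those strongest vehicle peaks were then overlapped by a DON peak.

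**Figure D1:**
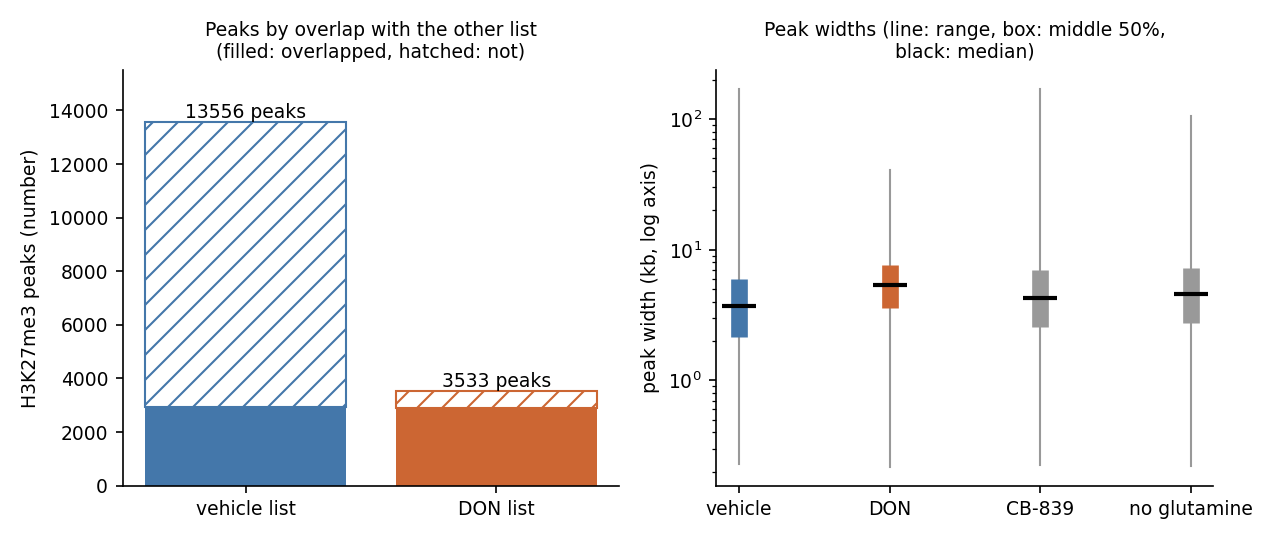
Left, number of H3K27me3 peaks in the vehicle and DON lists, filled where a peak of the other list overlaps by at least 1 base and hatched where none does. Right, peak width in kb on a log axis for the 4 H3K27me3 lists, with the range as a line, the middle 50% as a box and the median in black; the DON list has the fewest peaks, the highest median width (5342 bases) and the shortest widest peak (40598 bases).

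Width ordered the vehicle peaks more steeply than signal did. Among vehicle peaks up to 2149 bases wide, the narrowest of 4 groups of 3389 peaks, 6.2% were overlapped by a DON peak. The share was 10.7% and 19.2% in the next groups and 50.9% (49.2 to 52.6%) among the widest, of 5984 bases and more. By signal the shares were 9.44%, 18.5%, 19.5% and 39.6%. A wider peak offers more bases to overlap, so the same groups were read by bases: DON peaks covered 5.42% of the bases of the narrowest group and 37.7% of those of the widest. Within the group of highest signal, the share overlapped was 14.2% among the 288 peaks of the second width group and 52.4% among the 2166 widest. Within the widest peaks it was 38%, 54.1%, 46.8% and 52.4% from the lowest to the highest signal group, with no steady rise.

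**Figure D2:**
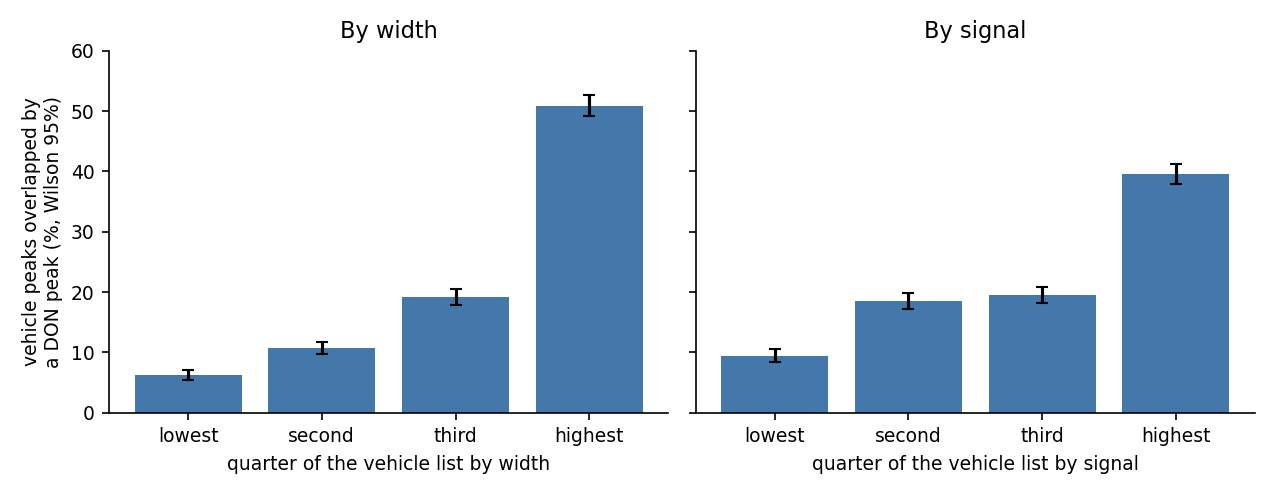
Share of vehicle H3K27me3 peaks overlapped by a DON peak (percent, bars) in 4 equal groups of the vehicle list ordered by width (left) and by the authors' signal (right), with Wilson 95% intervals that cover counting error only. The share rises from 6.2% to 50.9% with width and from 9.44% to 39.6% with signal.

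The 10606 vehicle peaks without a DON peak were narrow (median 3188 bases, against 6871 for those with one). On the lowest signal step in both replicates were 59.0% of them, near the 55.4% of the whole vehicle list. They lay a median of 105 kb from the nearest DON peak. The 622 DON peaks without a vehicle peak were close to vehicle peaks: their median distance was 9.01 kb, 52.6% lay within 10 kb and 8.68% lay beyond 100 kb. These 622 DON peaks were narrower (median 3329 bases) than the 2911 with a vehicle peak (5961 bases).

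The other treatments gave longer lists at the same time point. CB-839 gave 12417 peaks, which overlapped 62.6% of vehicle peaks, and medium without glutamine gave 8795, which overlapped 45.1%. List length differs between them, so each was also reduced to its 3533 strongest peaks. The overlapped share of vehicle peaks was then 28.3% with CB-839 and 24.7% without glutamine, beside 21.8% with DON. These comparisons share the vehicle list and each treatment has 1 list, so the differences have no replicate check. Of the 2950 vehicle peaks that DON peaks overlapped, 91.5% were also overlapped by a CB-839 peak and 80.8% by a glutamine-free peak. For the 10606 without a DON peak these shares were 54.6% and 35.2%. Of the 622 DON peaks without a vehicle peak, 46.5% were overlapped by a CB-839 peak and 35.7% by a glutamine-free peak.

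The widest vehicle peaks were listed as several separate peaks with DON. The widest vehicle peak, chr15:102903009-103072711, covered the Hoxc cluster, with the starts of Hoxc4, Hoxc5, Hoxc6, Hoxc8, Hoxc9, Hoxc10, Hoxc11, Hoxc12 and Hoxc13, homeobox factors that set positional identity in the embryo, and of the long noncoding RNA Hotair. Its replicate signals were 34 and 21.2. With DON the same stretch held 14 peaks of 3017 to 18307 bases that covered 61.3% of it. The strongest of these, with replicate signals of 10.6 and 19.7, held the start of Hoxc6. No DON peak lay within 1 kb of the outermost annotated start of Hoxc4, although its RefSeq start, 15461 bases away, had one. The CB-839 list held 1 peak of 169629 bases there, and the glutamine-free list 7, the widest of 106588 bases.

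The second widest vehicle peak, chr6:52206932-52276326, lay over the Hoxa cluster, with replicate signals of 18.3 and 20.9. DON cells had 5 peaks of 2031 to 8717 bases there, covering 43.8%. None lay within 1 kb of the annotated starts of Hoxa6, Hoxa7 or Hoxa9. At Hoxa9 a RefSeq start 3719 bases away had no DON peak either, whereas that of Hoxa7 had one. Both other treatments covered this cluster with wide peaks, 2 with CB-839 (49979 and 21718 bases) and 3 without glutamine (15557 to 30949 bases). Among all vehicle peaks, 228 were overlapped by 2 DON peaks and 45 by 3 or more, and the latter had a median width of 27563 bases. In reverse, 307 DON peaks spanned 2 vehicle peaks and 34 spanned 3 or more.

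**Figure D3:**
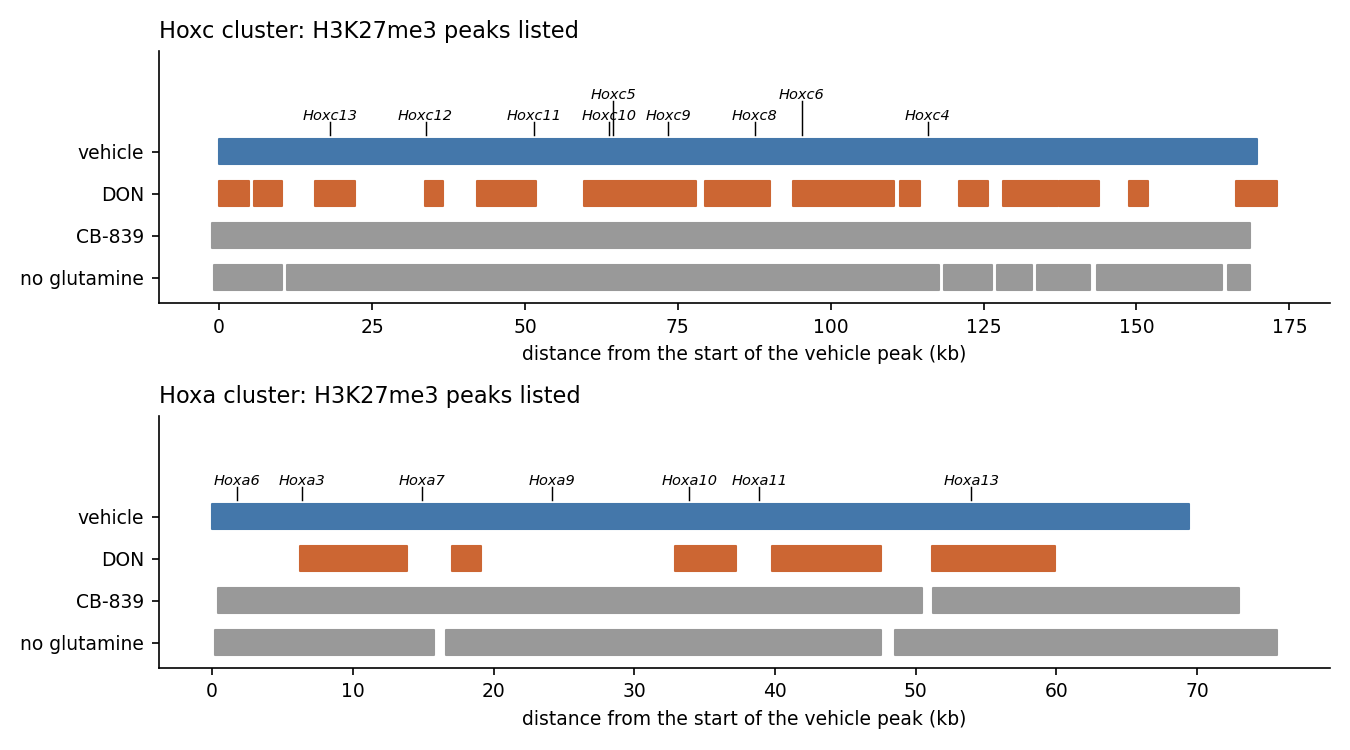
Map of the H3K27me3 peaks listed over the Hoxc (top) and Hoxa (bottom) clusters, in kb from the start of the vehicle peak, one row per list, with outermost annotated gene starts marked above. The vehicle and CB-839 rows of Hoxc are 1 continuous bar, the DON row is broken into 14 peaks, of which a pair near 137 kb touches at this scale.

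Other wide vehicle peaks also held several DON peaks. The peak at chr14:122437430-122494833, over the zinc finger factors Zic2 and Zic5, held 5 DON peaks that covered 62.7%. The peak at chr6:83672208-83725769, over the homeobox gene Vax2 and the Langerhans cell lectin gene Cd207, held 3 that covered 87.9%. The peak at chr3:88189203-88242551 held no named gene start and 3 DON peaks that covered 83.0%. The widest DON peak, chr8:111708104-111748701, held the start of Bcar1, which encodes an adhesion scaffold protein. Its replicate signals were 29.1 and 29, and 2 vehicle peaks covered 80.2% of it. Next came chr6:72211206-72242589, with the start of the basic helix-loop-helix gene Atoh8, and chr5:147293066-147323926, with the starts of Cdx2, an intestinal homeobox factor, and Urad. Vehicle peaks, 2 at Atoh8 and 1 at Cdx2 and Urad, covered 80.8% and 75.4% of these. The DON peak over Lhx6 and that over Otop3 and Ush1g held 2 vehicle peaks each, which covered 97.8% and 94.7%. All these peaks were picked as the widest of 1 list, which favours narrower pieces in the other list. Division of a wide peak is therefore not particular to the DON list.

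Fewer peaks were listed with DON on every chromosome, and relative to vehicle the fewest on X. The number of DON peaks per 100 vehicle peaks ranged from 19.3 on chromosome 16 to 31.4 on chromosomes 4 and 11. On the X chromosome there were 142 vehicle peaks and 13 DON peaks, 9.15 per 100, and 8.45% of the X peaks of vehicle cells were overlapped by a DON peak. The X chromosome held 1.05% of the whole vehicle list and 32 of its 3533 strongest peaks (0.906%). It held 30 of as many CB-839 peaks (0.849%), 18 of as many glutamine-free peaks (0.509%) and 13 of the DON list (0.368%). The sex of the animals is not given in the sources used here.

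Gene starts were more often under DON peaks than under vehicle peaks taken as a whole. A start within 1 kb was found for 48.1% of DON peaks and 33.6% of vehicle peaks, but for 50.8% of the 3533 strongest vehicle peaks. Overlap with the vehicle list of H3K27ac, the acetylation of the same lysine that marks active promoters and enhancers, was rare for both. It was 0.465% (0.363 to 0.594%) of vehicle H3K27me3 peaks and 0.481% (0.301 to 0.769%) of DON peaks.

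By gene, 2085 of 55487 genes (3.76%) had a peak within 1 kb of the annotated start in both lists, 3586 (6.46%) in the vehicle list alone and 213 (0.384%) in the DON list alone. The last class was 1084 genes with the vehicle list reduced to the length of the DON list, 858 with peaks of a replicate signal of at least 5.5 and 125 at an IDR of 0.01, so what follows describes it only as listed. A gene is called under a peak here where the peak lies within 1 kb of its start. Of the 2085 genes, 98.8% had overlapping peaks in the 2 lists and 78.2% had a start that both peaks covered. Promoters that kept a peak had a median of 20 CpGs in the 300 bases from 250 before to 50 after the start, over the 1032 with a RefSeq sequence. Those in the vehicle list alone had 17 (1724 promoters), those in the DON list alone 9 (96 promoters), and genes in neither list 12 (14513 promoters). A GC content of at least 50% with an observed to expected CpG ratio of at least 0.6 was met by 60.1% of promoters in both lists, 52.5% in the vehicle list alone, 31.2% in the DON list alone and 46% of all 17365. A peak at the same starts was present in the CB-839 list for 96.2% of genes in both lists and 71.4% of those in the vehicle list alone. In the glutamine-free list these shares were 87.9% and 52%.

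Developmental regulators were common in both lists. Of 39 Hox genes, 37 had a promoter peak in the vehicle list and 26 in the DON list, of which 25 were shared. Of 74 other developmental transcription factors, 70 had one in the vehicle list and 54 in the DON list, 53 of them shared. Evx1 and Evx2, homeobox genes beside the Hoxa and Hoxd clusters, were under vehicle peaks of 41656 and 31816 bases and DON peaks of 19437 and 7413 bases. The kidney factor Pax2 had replicate signals of 7.88 and 17.0 in the vehicle list and 17.8 and 7.93 in the DON list. Gata4, a heart and endoderm factor, was under a vehicle peak of 39496 bases and a DON peak of 7040 bases, while Sox1, a neural factor, had a vehicle peak of 26455 bases and no DON peak.

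Among 35 signalling ligands and antagonists of development, 27 had a vehicle peak and 17 a DON peak. Wnt1, Wnt6, the bone morphogenetic protein antagonist Chrd and Gdf7 were in both lists, whereas Wnt11 had a vehicle peak of 18184 bases only. Regulators of other blood lineages followed: 17 of 26 had a vehicle peak and 11 a DON peak. The myeloid factor Cebpa, the B cell factor Pax5, and the progenitor factors Lmo2 and Hhex were in both lists, and Maf, with a vehicle peak of 19855 bases, was in the vehicle list alone.

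Naive, effector and inhibitory receptor genes of T cells had a promoter peak in either list at shares near that of all genes, on small counts. A promoter peak was found for 3 of 30 naive and memory genes, 5 of 32 effector differentiation genes and 2 of 19 inhibitory receptor and TOX genes. These were 10.0%, 15.6% and 10.5% of the lists, beside 10.6% of all genes, coding and noncoding together. Coding genes had one more often: 6.56% of them in both lists, 10.5% in the vehicle list alone and 0.544% in the DON list alone. The effector genes Prdm1, Eomes and Id2 had a peak in the vehicle list alone, and Zeb2 and S1pr5 in both. Cytokines of other T cell subsets had 7 of 24 promoters under a vehicle peak and 1 under a DON peak. Il10 was in both lists. Il4, Il17a, Il22, Il24 and Il9, which belong to helper T cell programmes, and the macrophage growth factor gene Csf1 were in the vehicle list alone. Their summed vehicle signals ran from 11 for Il9 to 30.7 for Csf1, whose peak was 37959 bases wide. All 6 lay in the highest of the 4 signal groups of vehicle peaks, which began at 10.83.

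RNA of the same conditions was read at 48 h from whole-number counts per gene, 4 libraries a group, with 35.4 to 44.7 M counts per vehicle library and 33.2 to 41.3 M per DON library. By edgeR's quasi-likelihood test, 5755 of 16173 genes tested were higher with DON at a Benjamini-Hochberg adjusted p under 0.05 (35.6%) and 5758 were lower (35.6%). These shares are the background for every count of genes below. CPM of the 4 vehicle and 4 DON libraries did not overlap for 61.0% of tested genes. Vehicle replicate C stood apart, with a chi-square per gene of 83.6 to 177 against the other vehicle libraries, which differed from each other by 8.4 to 29.1, and without it the counts were 6289 and 5985. Scaling by library totals alone moved the median log2 fold change over the genes tested to 0.186, and the higher share of calls was then 62.8% in place of 50%. Nothing in the labels says that replicates were separate cultures, so a p-value reflects only how much these libraries vary. In bulk libraries fewer cells of a type and less RNA per cell cannot be told apart.

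Markers of other cells moved with DON. The summed CPM of 12 myeloid markers was 2.47 to 3.8 in vehicle libraries and 22.9 to 25 in DON libraries, and that of 10 B cell markers was 3.2 to 4.4 and 9.84 to 10.8. Only 3 of the 12 myeloid markers (Cd68, Lyz2 and Fcgr3) and 3 of the 10 B cell markers (Cd79a, Cd79b and Blk) passed the filter on low counts. Log2 fold changes were 3.27 (SE 0.11) for Cd68, 2.89 (SE 0.83) for Lyz2 and 1.67 (SE 0.51) for Fcgr3. Neither sum is therefore read as a measure of those cells. Adgre1, S100a8, Ms4a1 and Cr2 were at 0 in every vehicle library and no marker of these lists was at 0 in all DON libraries. NK cell markers summed to 0.292 to 0.484 and 0.869 to 1.28 CPM, with Klra8 at 0 throughout, and erythroid markers to 0.459 to 0.731 and 1.09 to 1.61 CPM. CD8 T cell markers summed to 3700 to 4310 CPM with vehicle and 3830 to 3960 with DON, and CD4 T cell markers to 430 to 475 and 389 to 418 CPM. The CD4 list summed to only 38.4 to 45.4 CPM in unstimulated cells. It holds the inhibitory receptor gene Ctla4, and Cd4 itself did not pass the filter on low counts. Its sum is therefore not read as RNA of CD4 T cells. The part of these cells in the peak lists and in the RNA results was not tested.

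Transcripts of the enzymes that write and erase the mark were called in both directions. None of 14 PRC2 and H3K27 enzyme genes had an H3K27me3 promoter peak in either list. At 48 h 2 of the 14 were higher with DON and 8 lower. With library totals only, 4 were higher and 3 lower: the calls of Ezh2, Eed, Suz12, Rbbp4 (edgeR adjusted p = 0.0713) and Kdm6a were lost, and Jarid2 and Aebp2 were called higher (edgeR adjusted p = 0.00219 and 0.00146). Ezh1, the alternative methyltransferase, stood at 22.6, 22.3, 20.5 and 22.7 CPM in the vehicle libraries and 55.5, 53.4, 53.8 and 52.3 CPM in the DON libraries, a log2 fold change of 1.29 (SE 0.05, edgeR adjusted p = 1.4e-13). Phf19, a Polycomb-like subunit that helps recruit PRC2, rose from 61.5 ± 0.598 to 122.0 ± 5.16 CPM (SD, n = 4; log2 fold change 0.99, edgeR adjusted p = 8.88e-13). DON and vehicle libraries did not overlap for either gene.

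The core subunits EZH2, SUZ12 and EED had modest differences. Ezh2 stood at 625, 665, 490 and 573 CPM with vehicle and 481, 508, 561 and 522 CPM with DON. Those groups overlap, and the log2 fold change of -0.18 (SE 0.07, edgeR adjusted p = 0.0328) became 0.00 with library totals only and missed the threshold without any of DON replicates A, B and D or vehicle replicates A and B. For Suz12 the values were 232 ± 52.8 and 169 ± 21.8 CPM and for Eed 134 ± 18.3 and 107 ± 5.41 CPM (SD, n = 4), log2 fold changes of -0.45 and -0.33 that overlap between groups and were not called with library totals only. Rbbp7, a histone-binding subunit, fell by 0.72 on the log2 scale (SE 0.04, edgeR adjusted p = 5.9e-11). The demethylase gene Kdm6b fell from 19.1 ± 1.3 to 8.56 ± 0.631 CPM (SD, n = 4; edgeR adjusted p = 3.86e-11), with no overlap. Its relative Kdm6a had 35.3 ± 6.77 and 26.3 ± 1.89 CPM, groups that overlap.

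Genes with a promoter peak were mostly little expressed. Above a mean of 1 CPM in vehicle cells were 11% of genes in both lists, 18.7% of those in the vehicle list alone, 16.9% of those in the DON list alone and 22.6% of those in neither. With DON the shares were 13.3%, 20.9%, 18.3% and 23.7%. These shares take coding and noncoding genes together. Among coding genes alone the gap to genes in neither list was wider. With vehicle 15.3% of coding genes in both lists and 27.7% of those in the vehicle list alone were above 1 CPM. The share was 28.1% in the DON list alone and 54.5% in neither. With DON the coding shares were 18.7%, 30.8%, 30.7% and 55.5%. With coding and noncoding genes together, only 542, 1176 and 63 genes of the 3 classes passed the filter on low counts and were tested. The shares that follow therefore say nothing of the other members.

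The tested genes with a vehicle peak held more calls of higher than of lower. In the vehicle-only class 502 of 1176 tested genes were higher with DON (42.7%) and 311 lower (26.4%), beside 241 of 542 (44.5%) and 130 (24.0%) in the class with a peak in both lists. The background was 35.6% in each direction. Median log2 fold changes were 0.22 and 0.37, against -0.03 for genes in neither list. In the DON-only class 24 of 63 were higher (38.1%) and 25 lower (39.7%). Library totals alone gave higher shares of 49.5% and 49.8% for the vehicle-only and shared classes, with the background at 44.6%.

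The shares were also read at matched expression, since these classes hold more genes of low level. Level was the mean log2 CPM over the 16 libraries of 48 h, CB-839 and glutamine-free ones included. A gene low in vehicle cells enters the test only where it is high in another group, and below a mean log2 CPM of 0 calls of higher outnumbered calls of lower also for genes in neither list, 42% and 15%. At this level 47.1% of genes in both lists and 46.3% of those in the vehicle list alone were higher with DON. From 0 to 2 the shares in both lists, the vehicle list alone and neither were 44.4%, 44.7% and 46.5%, and from 2 to 4 they were 44.1%, 46.1% and 44.6%. At 4 and above 30.8%, 29% and 26.3% were higher. At that level 57.7% of 52 genes in both lists were lower with DON, beside 50% of 214 in the vehicle list alone and 49.7% of 7580 in neither. These shares describe the classes and were not tested against each other.

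**Figure D4:**
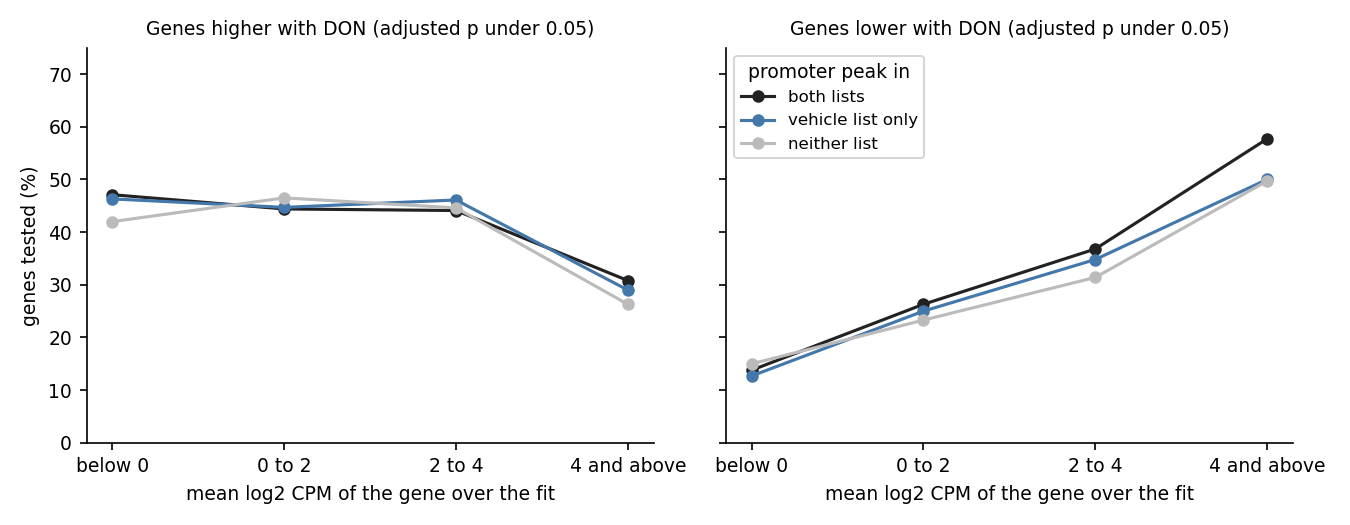
Share of tested genes that were higher (left) or lower (right) with DON at an adjusted p under 0.05, in percent. Genes are grouped by mean log2 CPM over the 16 libraries of 48 h and by the list in which the promoter has an H3K27me3 peak. The 63 genes of the DON-only class are not drawn. From 2 to 4 the higher shares are 44.1% in both lists, 46.1% in the vehicle list alone and 44.6% in neither; at 4 and above the lower shares are 57.7%, 50% and 49.7%.

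Genes in both lists included large RNA changes under a retained promoter peak. Unc5b, a netrin receptor, was at 0.492, 0.324, 0.250 and 0.261 CPM in the vehicle libraries and 13.1, 14.5, 13.4 and 11.6 CPM in the DON libraries. The log2 fold change was 5.26 (SE 0.19, edgeR adjusted p = 2.72e-14), although its promoter was under a peak of 15540 bases with vehicle and 14479 bases with DON. Kit, the stem cell factor receptor, was at 0.328, 0.573, 0.438 and 1.10 CPM with vehicle and 8.84, 8.97, 10.5 and 6.98 CPM with DON (log2 fold change 3.87, SE 0.25, edgeR adjusted p = 9.22e-11). Unstimulated cells had 10.9 CPM of Kit, near the DON libraries and far above vehicle, though on factors over all 52 libraries and so only roughly comparable. The promoter printed above was covered by replicate signals of 8.32 and 7.45 in the vehicle list and 3.83 and 8.27 in the DON list.

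Nt5e, which encodes the adenosine-generating surface enzyme CD73, was at 1.83, 1.45, 0.751 and 1.48 CPM with vehicle and 9.06, 9.16, 8.62 and 8.60 CPM with DON (log2 fold change 2.66, SE 0.18, edgeR adjusted p = 1.39e-10). Its DON peak was 3031 bases wide and its vehicle peak 6362 bases. The TOX family gene Tox2 rose from 0.126 ± 0.0681 to 0.541 ± 0.181 CPM (SD, n = 4; edgeR adjusted p = 0.000304), with a vehicle peak of 13909 bases and a DON peak of 4123 bases. The gut-homing receptor Ccr9 reached 4.24 ± 0.739 CPM with DON, from 0.146 ± 0.0701 with vehicle and 96.2 CPM in unstimulated cells. Its peak lies at an outermost start 88772 bases from the RefSeq start, which had no peak in either list, and 21.5% of its exon bases overlap another gene, so its count is uncertain. The guanylate cyclase gene Gucy2e and the acetylcholine receptor subunit gene Chrnb1 rose by 3.21 and 2.47 on the log2 scale, with a peak near the start in both lists.

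The opposite direction also occurred in this class. Hbegf, an epidermal growth factor receptor ligand, was at 5.42, 5.96, 5.19 and 5.39 CPM with vehicle and 0.168, 0.304, 0.133 and 0.289 CPM with DON (log2 fold change -4.57, SE 0.20, edgeR adjusted p = 3.62e-13). H1f0, the replacement linker histone of non-dividing cells, fell from 51 ± 2.89 to 3.4 ± 0.489 CPM (SD, n = 4; edgeR adjusted p = 1.6e-16). Its vehicle and DON peaks lay on either side of the start and did not overlap. Cystathionine γ-lyase, encoded by Cth, stood at 17.7, 23, 19.7 and 22.5 CPM with vehicle and 3.31, 4.21, 5.36 and 4.47 CPM with DON, though it was at 0.0562 CPM in unstimulated cells. The cell cycle inhibitor gene Cdkn1a fell from 71.1 ± 11.3 to 26.2 ± 2.52 CPM (SD, n = 4; edgeR adjusted p = 1.94e-10). In none of these 4 genes did the groups overlap.

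Where the peak was in the vehicle list alone, RNA again moved either way. Ttyh1, a membrane protein gene best known in neural cells, was at 0.164, 0.0249, 0.0938 and 0.174 CPM with vehicle and 12.8, 13.5, 15.3 and 15.3 CPM with DON (log2 fold change 6.93, SE 0.22, edgeR adjusted p = 6.85e-15). The water and glycerol channel gene Aqp3, whose promoter is printed above, stood at 1.38, 1.59, 1.53 and 1.45 CPM with vehicle and 29.9, 25.6, 24.7 and 28.2 CPM with DON (log2 fold change 4.18, SE 0.09, edgeR adjusted p = 5.22e-17). Vehicle libraries were below all DON libraries for both genes. Aqp3 kept a CB-839 peak and had no glutamine-free peak. Calcb, Nebl and Sntb1 rose by 5.65, 3.99 and 3.84 on the log2 scale.

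Effector regulators in this class went down. Prdm1, which encodes BLIMP-1, a driver of terminal effector differentiation, was at 4.48, 5.61, 3.16 and 3.94 CPM with vehicle and 0.0842, 0.140, 0.398 and 0.156 CPM with DON (log2 fold change -4.46, SE 0.29, edgeR adjusted p = 1.13e-10). Its peak of 10945 bases lay at the outermost start, and the RefSeq start, 69753 bases away, had a vehicle peak within 1 kb as well and no DON peak. Eomes, a T-box factor of effector and memory cells, was at 17.4, 19.4, 17.2 and 15.7 CPM with vehicle and 9.93, 10.4, 10.3 and 9.58 CPM with DON (log2 fold change -0.79, SE 0.07, edgeR adjusted p = 1.64e-08). At 24 h the means had been 32.5 CPM with vehicle and 43.4 CPM with DON, the other way round, a difference not tested here. Vldlr, a lipoprotein receptor gene, fell by 3.58 on the log2 scale (SE 0.56, edgeR adjusted p = 1.61e-05), and the proline hydroxylase gene P4ha2 by 2.98. The stress factor gene Atf3 fell from 44.7 ± 2.85 to 4.81 ± 0.632 CPM (SD, n = 4), but its peak lies 34706 bases from its RefSeq start, where neither list had one.

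Large falls of RNA also occurred under a DON peak with no vehicle peak. Scd1, stearoyl-CoA desaturase, was at 73.0, 78.5, 60.5 and 73.2 CPM with vehicle and 1.71, 3.13, 3.63 and 2.89 CPM with DON (log2 fold change -4.64, SE 0.17, edgeR adjusted p = 1e-13). A DON peak of 9722 bases with replicate signals of 7.47 and 11.5 covered its start. CB-839 cells had a peak there and glutamine-free cells had none, and unstimulated cells had 0.787 CPM. Dgat2, which makes triglycerides, was at 5.96, 6.13, 7.29 and 6.23 CPM with vehicle and 1.57, 1.22, 1.25 and 1.38 CPM with DON (log2 fold change -2.24, SE 0.11, edgeR adjusted p = 3.84e-12). It had an H3K27ac peak in vehicle cells and no H3K27me3 peak with CB-839 or without glutamine. The endothelial lipase gene Lipg fell by 3.13 on the log2 scale. The mitochondrial adenylate kinase gene Ak4 had a log2 fold change of -3.05, but a second RefSeq start of Ak4 had a vehicle peak within 1 kb.

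Other DON-only genes rose. Serp2, a stress-associated endoplasmic reticulum protein gene whose promoter is printed above, stood at 2.02, 2.49, 3.10 and 2.43 CPM with vehicle and 9.60, 9.35, 9.45 and 9.18 CPM with DON (log2 fold change 1.91, SE 0.13, edgeR adjusted p = 2.72e-10). The cation channel gene Trpm4 rose from 3.61 ± 0.892 to 7.64 ± 0.798 CPM and the platelet integrin gene Itga2b from 1.53 ± 0.337 to 3.5 ± 0.87 CPM (SD, n = 4). Stc2, a secreted glycoprotein gene of the amino acid response, had 1.81 ± 0.527 CPM with vehicle and 1.09 ± 0.387 with DON. Its edgeR adjusted p of 0.0159 became 0.0511 without DON replicate C, 0.0764 without vehicle replicate D and 0.0723 with library totals only.

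**Figure D5:**
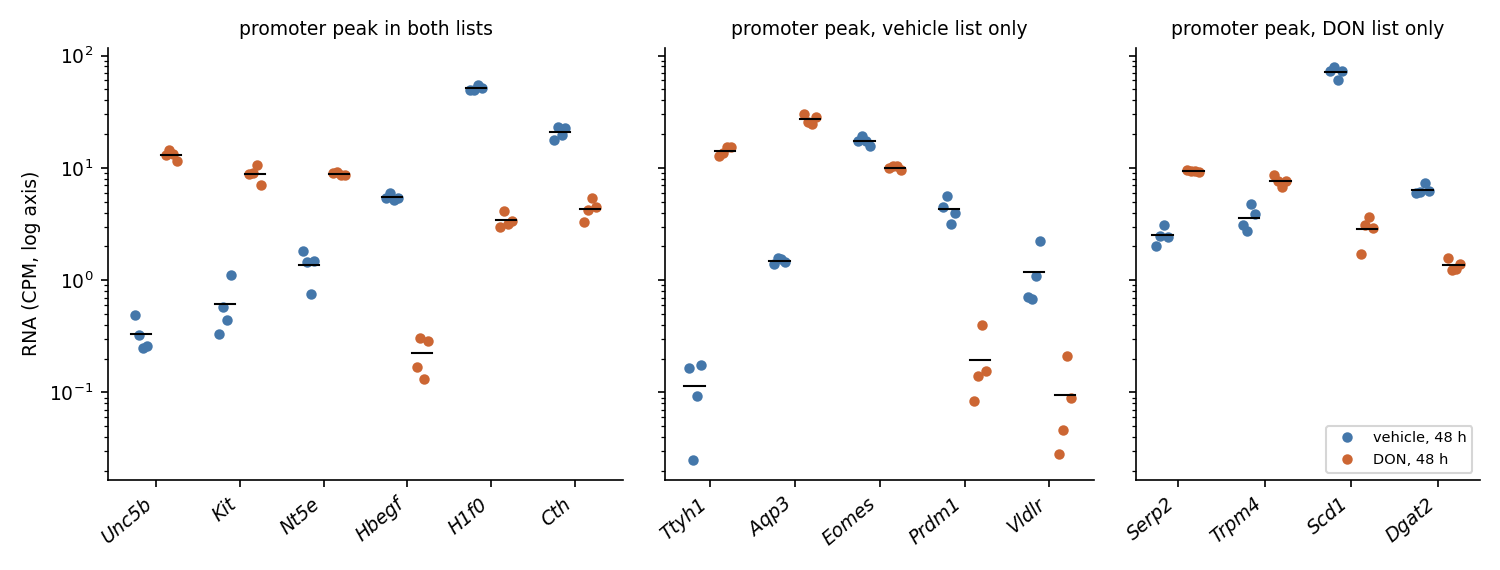
RNA of named genes in CPM on a log axis, 1 point per library and the mean as a black line, for 4 vehicle and 4 DON libraries at 48 h, grouped by the list in which the promoter has an H3K27me3 peak. For each gene drawn the 2 groups of libraries are separate, and each panel holds genes that are higher and genes that are lower with DON.

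Counts over the gene lists were small where a promoter peak was required. Of 39 Hox genes only Hoxb4 and Hoxb9 had enough reads in the 16 libraries of 48 h to be tested. Hoxb4, which also acts in blood stem cells and had a peak in the DON list alone, rose from 1.1 ± 0.157 to 2.95 ± 0.315 CPM (SD, n = 4; edgeR adjusted p = 1.62e-07). Hoxb9 had a log2 fold change of -1.97 (SE 0.97, edgeR adjusted p = 0.0963) at no more than 0.058 CPM in any vehicle or DON library. The filter on low counts also took in the CB-839 and glutamine-free libraries. Without DON replicate A the log2 fold change of Hoxb9 was -3.57 and its edgeR adjusted p 0.0215. Of 71 developmental factors with a peak, Lhx2, Otx1 and Twist1 had enough reads and were higher with DON; the other members were not tested. Twist1 went from 0.245 ± 0.0917 to 1.84 ± 0.22 CPM (SD, n = 4; edgeR adjusted p = 5.07e-08). At 24 h its means were 1.81 CPM with vehicle and 1.4 CPM with DON. Lhx2 has another RefSeq start with a DON peak within 1 kb. These 5 genes were chosen after their values were seen.

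Of 18 regulators of other blood lineages with a promoter peak, 11 were tested. Members low in both groups were not, so no direction is read from the tested ones. Hhex and Id1, a dominant inhibitor of basic helix-loop-helix factors, were both under a peak in both lists and rose by 2.17 and 2.63 on the log2 scale (edgeR adjusted p = 1.74e-05 and 1.6e-07). Lmo2 had a log2 fold change of 0.46 with an edgeR adjusted p of 0.322, and without vehicle replicate C these were 0.99 and 0.027. Of 28 developmental ligands and antagonists with a peak 6 were tested, among them Sfrp2, a secreted Wnt antagonist, at 0.745 ± 0.0981 and 2.58 ± 0.0977 CPM (SD, n = 4; edgeR adjusted p = 6.48e-09). Of 8 tested PRC1 genes with a peak, 3 were higher and 2 lower. Pcgf1, a subunit of variant PRC1 complexes in both lists, rose from 8.33 ± 1.42 to 30.6 ± 0.962 CPM (SD, n = 4; edgeR adjusted p = 9.14e-12).

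Effector and amino acid response genes were mostly lower, with or without the mark. Of 29 tested effector differentiation genes 25 were lower with DON, and so were the 4 with a promoter peak. With library totals only these counts were 20 and 2, and Zeb2 (log2 fold change -0.31) and Id2 (-0.24) were no longer called. Zeb2 also missed the threshold without any of DON replicates A, B and D or vehicle replicates A and B. For the amino acid response 33 of 36 tested genes were lower, 7 of the 8 with a peak among them. Cbs, which starts transsulfuration, fell by 1.25 on the log2 scale and Shmt2, the mitochondrial serine hydroxymethyltransferase gene, by 0.76, with promoter peaks in both lists and in the vehicle list alone. Naive and memory genes were 20 higher and 8 lower of 30 tested, but only Ccr9, Lef1 and Igfbp4 had a promoter peak, and Lef1 fell by 0.78 while Igfbp4 rose by 1.33 on the log2 scale.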

How the data were processed

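The authors deposited 1 H3K27me3 list per condition, with merged peaks of 2 replicates in an IDR layout on mm10. Columns hold a peak signal per replicate, their sum, a score and −log10 values, per the file headers and the values; the submitters' processing notes name MACS2, Bowtie2, STAR, FastQC and deepTools without versions. Intervals and signals were used as deposited. Which replicate column belongs to which sample letter is not given in the sources used here. Overlap needed 1 shared base, and a promoter peak lay within 1000 bases of a gene's outermost start in the count table.

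RNA came as deposited counts. Per the file headers, featureCounts 2.0.1 was run in paired mode over GENCODE exons with no strand option, although the labels name stranded libraries, so overlapping genes cannot be separated. Of 55487 identifiers, 55141 had a symbol once version suffixes were dropped. The 16 libraries of 48 h were fitted together with edgeR 4.0.16 in R 4.3.3, with filterByExpr, TMM factors and a quasi-likelihood test, threshold 0.05. CPM of tested genes in the vehicle and DON libraries at 48 h use the same factors. Other CPM use TMM factors over all 52 libraries with no count filter. These are the unstimulated and 24 h means, the marker sums, genes not tested and the shares above 1 CPM. Values of the 2 scalings are only roughly comparable. No 2 libraries were alike enough to be counted as 1. The code was tested on simulated data.

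Promoter sequences are from RefSeq (GRCm38.p6). Of 121 named genes with a promoter peak, 86 had a RefSeq start on the same chromosome, and 75 of these fell in the same class at their RefSeq starts. Some of these starts lay far from the outermost start, as for Ccr9 (88772 bases). Named genes were, per class, the 8 of highest signal and up to 6 higher and 6 lower genes. The latter had a mean log2 CPM of at least 1 over the 16 libraries of 48 h and groups that were apart. CB-839 and glutamine-free libraries enter that mean, so Vldlr passed with means of 1.18 CPM with vehicle and 0.094 with DON. Also named were up to 6 members per gene list with a promoter peak, all PRC2 and H3K27 enzyme genes and the 5 widest peaks per list. Lists and members were chosen with earlier results of these data known. Intervals and floors cover counting error only. Alternatives were another IDR, overlap, window and list length, other scalings and filters, DESeq2 1.42.0, other sets of libraries, the replicate block and leaving out each library.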

Additional observations from a re-analysis of the deposited data

Results flagged for a closer look

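In 14 of the 178 groups of 4 libraries examined, 1 library lay far from the other 3 by Dixon's criterion, which chance meets in about 1 of 20 groups. Vehicle replicate C had 0.0 CPM of Dsp (others 0.232 to 0.249), 7.57 of Fkbp11 (4.17 to 4.71) and 10.4 of Pcgf1 (7.5 to 7.82). DON replicate C had 0.239 CPM of Slc1a2 (0.421 to 0.445), 0.929 of Fkbp11 (0.673 to 0.701), 40.3 of Phc1 (45.8 to 46.9) and 1.62 of Lmo2 (0.467 to 0.561). Vehicle replicate D had 4.72 CPM of Tspoap1 (2.63 to 2.74), and vehicle replicate B had 36.4 of Ak4 (37.8 to 37.9). DON replicate B had 7.62 CPM of Kdm6b (8.76 to 8.98) and 2.24 of Otx1 (1.8 to 1.86). DON replicate D had 1.67 CPM of Stc2 (0.849 to 0.926), and DON replicate A had 7.1 of Zbtb7b (5.68 to 5.84) and 0.0281 of Hoxb9, which was 0.0 in the others. Replicate C of both conditions gave 7 of the 14.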

How the results depend on the processing

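At an IDR of 0.01 the vehicle list held 6629 peaks and the DON list 962, the vehicle share overlapped was 12.4%, 803 genes had a promoter peak in both lists and 125 in the DON list alone, and RNA calls numbered 67 higher and 40 lower in the shared class and 15 and 12 in the DON-only class. Requiring an overlap of 50% of a peak gave 16% of vehicle and 74.2% of DON peaks, and counting bases gave 25.2% and 75.2%. With the vehicle list reduced to the length of the DON list, the shares were 38.9% and 45.2% and the classes 1214, 1335 and 1084 genes (both lists, vehicle alone, DON alone). Keeping peaks with a replicate signal of at least 5.5, chosen after seeing the data, left 6046 vehicle peaks, shares of 25.7% and 55.4%, and classes of 1235, 1951 and 858 genes, with 133, 256 and 111 higher and 64, 155 and 76 lower. Fewer peaks enter in these settings by construction. The DON-only class therefore depends on the length of the vehicle list. Leaving out a library gave 5632 to 6289 genes higher and 5505 to 5985 lower, library totals only gave 7214 and 4277, and all 52 libraries gave 5111 and 6448. Same-letter libraries correlated in their deviations at -0.532 to 0.0142 and libraries of different letters at -0.709 to 0.683. These values cannot tell what a letter shares, and the labels do not say. The replicate block gave 5712 and 5694 calls (5006 and 4777 in the fit of 8 libraries), with Ezh2 and Zeb2 at an edgeR adjusted p of 0.0545 and 0.0519. For the peaks no paired analysis was possible because each list merges its replicates. Of 1414 values for 89 named genes, 1370 kept direction and side of the threshold, 33 lost and 10 gained the call, and Ezh2 (0.00 with library totals only) changed direction; the cause was not tested. Short or weak peaks and genes of few counts are at the limit of what this depth shows.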
